A study of Mus musculus with 17 samples.

Results

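Actin and tubulin build the cytoskeleton, and the genes described are 2 cytoplasmic actins (Actb and Actg1), 4 alpha-tubulins (Tuba1a, Tuba1b, Tuba1c, and Tuba4a), and 4 beta-tubulins (Tubb2a, Tubb2b, Tubb5, and Tubb6). A probe belonged to the set when its gene symbol in the deposited log2 ratio table was one of these 10 names. By that rule 17 of 41146 probes were members, and all 17 passed the filter on dim probes that left 34639 probes, which stand for 19359 genes. They covered 9 genes, because Tuba1b had no probe under that symbol. Each array measured the liver RNA of 1 male mouse, labeled with Cy5, against a reference RNA labeled with Cy3 and common to all arrays. Mice were fed for 3 months and then gavaged, with maltose after chow (chow, n = 4), ethanol at 5 g/kg after chow (1B, n = 4), maltose after a high-fat diet (HFD, n = 4), or ethanol at 5 g/kg after a high-fat diet (HFD+1B, n = 5). The labels name the strain C57BL/6N and the methods C57BL/6J, no genetic change was introduced in these groups, and the age of the mice is not given in the sources used here. The liver was measured whole, so fewer cells of a type and less RNA per cell cannot be told apart.

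Beta-actin and gamma-actin polymerize into the filaments beneath the cell membrane, and in hepatocytes these filaments surround the bile canaliculi. Alpha-tubulin and beta-tubulin pair into the dimers from which microtubules are built, along which hepatocytes carry vesicles for the secretion of proteins and lipoproteins. Transcription of actin genes responds to the pool of free actin through serum response factor (SRF), which binds the CArG box, and tubulin mRNAs are degraded when free tubulin dimers accumulate. Actb is also widely used as a reference gene in mRNA measurements.

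The promoters of Actg1 and Tubb2a are shown first, because these genes had the largest rises from chow to HFD+1B. The stretches are the 250 bases before the RefSeq start of each gene, 5′ to 3′ on the minus strand, at chr11:120348496-120348745 and chr13:34078009-34078258 of GRCm38.p6. Capitals mark the CArG box, CCAAT, and TATAAA, each searched on both strands.
Actg1: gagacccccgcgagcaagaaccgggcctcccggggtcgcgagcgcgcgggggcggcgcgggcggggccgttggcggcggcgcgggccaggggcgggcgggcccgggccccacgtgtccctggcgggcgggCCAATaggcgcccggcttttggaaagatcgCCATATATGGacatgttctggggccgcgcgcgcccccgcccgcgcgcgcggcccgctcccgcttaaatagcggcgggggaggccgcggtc
Tubb2a: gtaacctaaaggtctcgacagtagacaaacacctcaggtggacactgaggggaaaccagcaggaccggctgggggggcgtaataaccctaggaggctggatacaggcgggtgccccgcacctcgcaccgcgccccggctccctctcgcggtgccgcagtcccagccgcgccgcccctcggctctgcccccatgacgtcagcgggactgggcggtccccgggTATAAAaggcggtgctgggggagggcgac
The CArG box of Actg1 began 90 bases before the start, and 1.47% of 32851 RefSeq promoter windows of this length held one. Tubb2a held TATAAA 29 bases before the start, as did 12.4% of windows somewhere in their length, and CCAAT, present in Actg1, was in 33.8% of windows. Of the members, 7 had an entry in the promoter table, and among these Actg1 was the only one with a CArG box and Tubb2a the only one with TATAAA. There was no entry for Actb, Tubb2b, and Tubb6.

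Values are log2 ratios of liver to reference after background correction and loess, and a difference was called at an adjusted p (Benjamini-Hochberg, limma over all 34639 probes) of 0.05 or less. Each gene is described at its brightest probe, with the other probes beside it. Each of 5 slides carried 3 or 4 of the arrays, all of different groups. Between 73.8% and 85.9% of probes were well above background on an array. The mean log2 ratio of 5 ribosomal RNA probes was lower in HFD mice, at -3.81 to -2.15, than in all other mice, at -1.16 to 1.12. HFD mouse 3 was lowest in ribosomal RNA, and its mean r with the other HFD mice over 32804 probes was 0.65, against 0.71 to 0.75 for the rest. Within HFD+1B the mean r was 0.53 to 0.62. Of 10 hepatocyte markers, 9 were tested, and these were well above background on all 17 arrays.

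From chow to HFD+1B, Actb, Actg1, Tubb2a, and Tubb6 were called higher and Tuba4a lower, which is 4 and 1 of 9 genes, beside 8.91% and 7.42% of all genes. From HFD to HFD+1B, Actb, Actg1, and Tubb6 were called higher and none lower, 3 of 9 beside 11% of all genes (8.38% lower). The other alpha-tubulins, Tubb2b, and Tubb5 were not called at the brightest probe in any comparison. From 1B to HFD+1B, Actg1, Tubb2a, and Tubb6 were called higher and none lower, beside 6.27% and 5.16% of all genes. From chow to HFD, Actg1, Tubb2a, and Tubb6 were called higher and Tuba4a lower, beside 4.48% and 6.55% of all genes. From chow to 1B, only Actg1 was called, higher, beside 2.09% of all genes (2.05% lower). These comparisons share groups, so their counts are not independent of each other.

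The median log2 difference over the 9 genes was 0.85 from chow to HFD+1B, 0.24 from HFD to HFD+1B, and 0.44 from 1B to HFD+1B. It was 0.30 from chow to HFD and 0.55 from chow to 1B. Over all genes each of these medians lay within -0.01 and 0.01, because loess centers the ratios of each array near 0. Whether the ethanol effect differed with diet was tested as an interaction, (HFD+1B minus HFD) minus (1B minus chow), which was called for 0 of the 17 member probes beside 2.71% of genes positive and 1.71% negative. At an unadjusted limma p under 0.05, the second and the third probe of Tubb2a and the second probe of Tubb5 passed. The Tubb2a probes measure 1 gene (r = 0.99 between them), and HFD mouse 3 was the highest HFD mouse at both. The share of all probes under that threshold was not counted, so nothing is read from the number passing. Among brightest probes the lowest adjusted p were those of Tubb2b and Tuba1c, 0.40 and 0.43. Under the rule of at least 2-fold at an unadjusted p of 0.05 or less, 1 gene was called from chow to 1B (beside 1.06% of all genes), 2 from chow to HFD (1.94%), 3 from chow to HFD+1B (3.03%), 0 from HFD to HFD+1B (2.12%), and 3 from 1B to HFD+1B (1.91%).

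**Figure D1:**
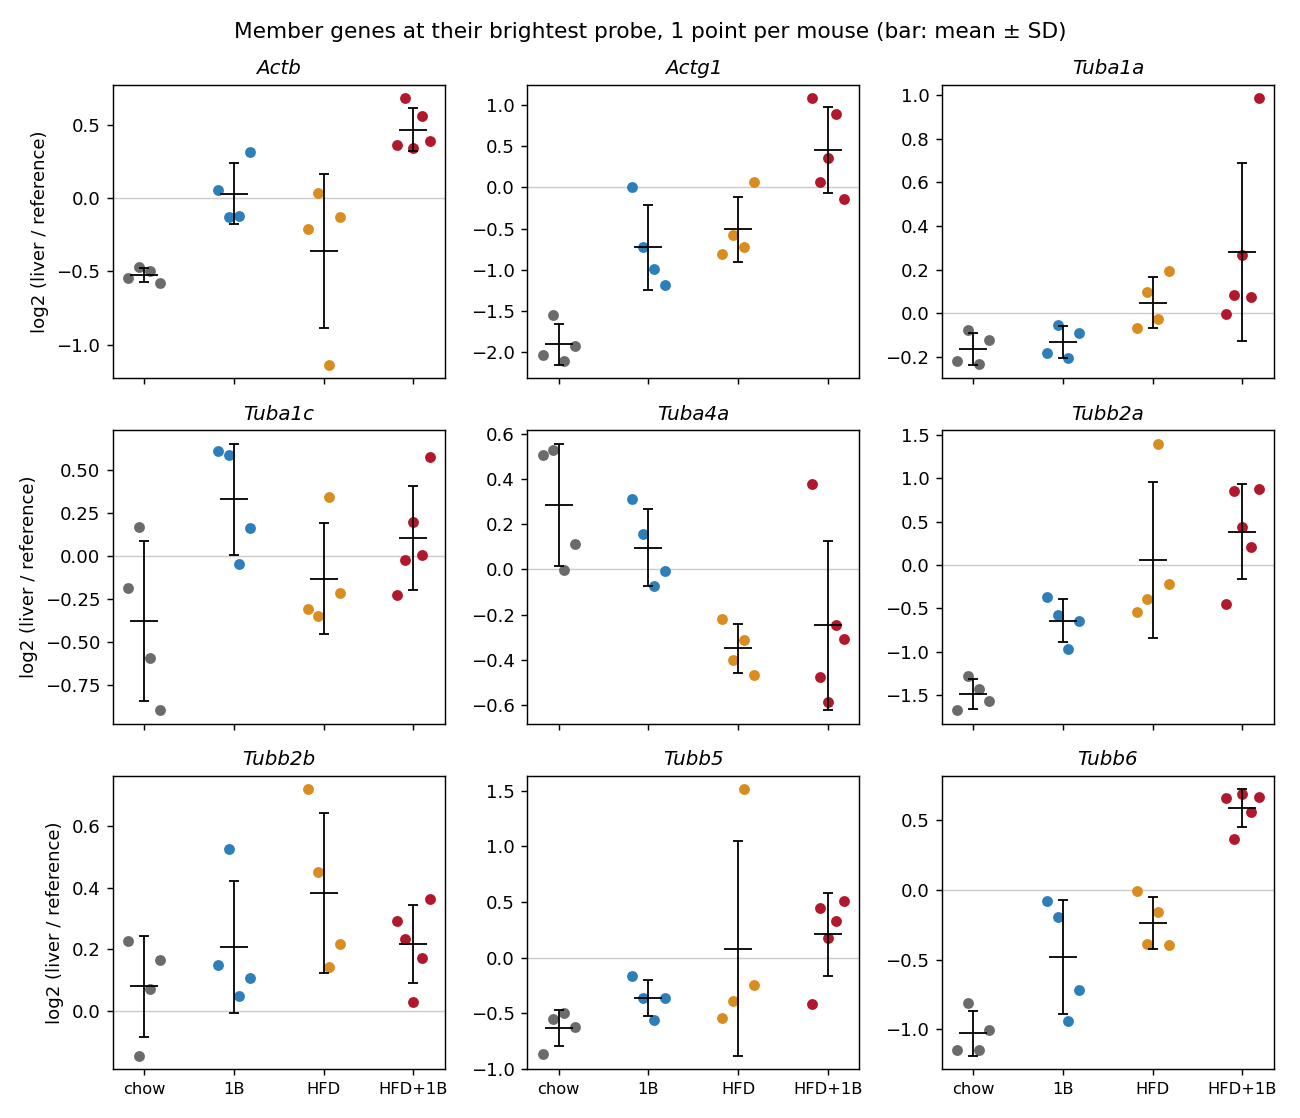
Log2 ratio of liver to reference (y axis) of the 9 member genes at their brightest probe in the 4 groups (x axis), with 1 point per mouse and the mean ± SD. Actb, Actg1, and Tubb6 rise with ethanol on the high-fat diet, Tuba4a lies lower in both high-fat diet groups, and HFD mouse 3 stands apart in Actb, Tubb2a, and Tubb5.

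Actb, which encodes cytoplasmic beta-actin, had the tightest values in chow mice, with log2 ratios of -0.55, -0.47, -0.50, and -0.58. In 1B mice they were 0.06, -0.13, -0.12, and 0.31, and in HFD mice -0.21, 0.04, -1.14, and -0.13. In HFD+1B mice they were 0.36, 0.68, 0.34, 0.56, and 0.39. All HFD+1B mice lay above all mice of the 3 other groups, and all 1B mice lay above all chow mice. HFD+1B exceeded HFD by 0.83 ± 0.17 (SE), which is 1.77-fold (adjusted p = 0.0035), and chow by 0.99 ± 0.17, or 1.99-fold (adjusted p = 0.00073). The difference of 1B from chow, 0.55 ± 0.18, did not pass (adjusted p = 0.13), and that of HFD from chow was 0.16 with a 95% interval of -0.22 to 0.55.

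The Actb probe was printed in 10 spots on every array, so its error between spots could be read within an array. Error of labeling or hybridization is shared by the spots of an array and is not part of it. The SD between its spots was 0.04 to 0.15 on the log2 scale, with a median of 0.08, after 17 of 170 spots were left out as outliers. Chow mice had an SD of 0.05, 1B mice of 0.21, HFD mice of 0.53, and HFD+1B mice of 0.15. The spread of HFD was set by mouse 3, at -1.14. Without that mouse HFD exceeded chow by 0.42 and HFD+1B exceeded HFD by 0.57, and both differences were called. With the slide as a block HFD+1B exceeded 1B by 0.52, which was called. With the Cy5 signal alone the differences of HFD+1B from HFD and from chow were 0.54 and 0.80, and neither was called.

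Actg1, which encodes cytoplasmic gamma-actin, was called higher than chow in each treated group. Its log2 ratios were -2.04, -1.55, -2.11, and -1.94 in chow mice and 0.00, -0.73, -0.999, and -1.19 in 1B mice. They were -0.81, -0.58, -0.73, and 0.07 in HFD mice and 1.09, 0.07, 0.36, 0.90, and -0.14 in HFD+1B mice. Chow mice lay below all mice of the other groups, whereas HFD and 1B mice overlapped with each other and with the lowest HFD+1B mice. HFD+1B was 5.15-fold over chow (log2 difference 2.37 ± 0.26, adjusted p = 9.7e-06), HFD was 2.64-fold (1.40 ± 0.28, adjusted p = 0.0045), and 1B was 2.27-fold (1.18 ± 0.28, adjusted p = 0.021). HFD+1B exceeded HFD by 0.97 ± 0.26 (adjusted p = 0.017) and 1B by 1.19 ± 0.26 (adjusted p = 0.0076). With the Cy5 signal alone, without the reference channel, the difference of Actg1 from chow to HFD was 0.19 and was not called, that from chow to 1B was 1.02 and was not called, and those of HFD+1B from chow and from HFD were called.

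The highest HFD value of Actg1, in mouse 4, came from a spot with a median Cy5 signal of 146, below the 464 to 2186 of the other HFD mice. The second Actg1 probe had 630 in that mouse and a log2 ratio of -0.43, beside -0.42 to -0.08 in the other HFD mice. At that probe all HFD+1B mice (-0.04 to 1.46) lay above all HFD mice, with a difference of 1.18 ± 0.27 (adjusted p = 0.0062). HFD+1B was 4.45-fold over chow there, and the difference of 1B from chow, 0.97 ± 0.29, did not pass (adjusted p = 0.075). The probes correlated with r = 0.94 over the 17 arrays, as a description. The call from chow to 1B was lost when any of 1B mice 1 and 2 and chow mice 1, 3, and 4 was left out, and the call from HFD to HFD+1B when HFD mouse 3 was left out, where the difference was 0.89.

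Among the alpha-tubulins, Tuba4a was the only gene called lower. Its log2 ratios were 0.51, 0.53, -0.00, and 0.11 in chow mice and 0.31, 0.16, -0.07, and -0.01 in 1B mice. They were -0.22, -0.40, -0.31, and -0.47 in HFD mice and 0.38, -0.48, -0.59, -0.25, and -0.31 in HFD+1B mice. All HFD mice lay below all chow mice, and 4 of 5 HFD+1B mice did, with mouse 1 of HFD+1B among the chow mice at this probe only. Its spot had a median Cy5 signal of 5336, above the 904 to 1816 of the other HFD+1B mice. At the second and the third probe that mouse lay at -0.62 and -0.45, within its group. Chow mouse 1 also had a high signal at the brightest probe, 5710 beside 1891 to 2336 in the other chow mice. HFD was lower than chow by 1.55-fold (-0.64 ± 0.17, adjusted p = 0.026) and HFD+1B by 1.45-fold (-0.53 ± 0.16, adjusted p = 0.034). HFD+1B and HFD differed by 0.10, with a 95% interval of -0.24 to 0.45.

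The other Tuba4a probes gave the same sign against chow but not the same calls. At the second probe HFD was -0.16 ± 0.21 from chow (adjusted p = 0.69), with HFD mouse 4 high at 0.60 from a spot with a Cy5 signal of 171, below the 472 to 1999 of the other HFD mice. At the third probe HFD+1B was -0.61 ± 0.13 from chow (adjusted p = 0.0026) and HFD -0.34 ± 0.13 (adjusted p = 0.12). HFD+1B also lay below 1B at that probe, by 0.53 ± 0.13 without overlap (adjusted p = 0.012). The call from chow to HFD at the brightest probe was lost when any of chow mice 1 and 2 and HFD mice 2, 3, and 4 was left out. The call from chow to HFD+1B was lost without any of chow mice 1 and 2 and HFD+1B mice 2, 3, 4, and 5. With the Cy5 signal alone neither was called, at -1.20 from chow to HFD and -0.59 from chow to HFD+1B.

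Tuba1a, an alpha-tubulin known mainly from developing neurons, was measured near background, with Cy5 signals of 34 to 126 intensity units. Its log2 ratios lay at -0.23 to -0.08 for chow mice, -0.21 to -0.05 for 1B mice, -0.07 to 0.19 for HFD mice, and -0.00 to 0.99 for HFD+1B mice. HFD+1B mice lay above all chow and 1B mice, but the differences of 0.44 ± 0.15 and 0.41 ± 0.15 did not pass (adjusted p = 0.054 and 0.094). HFD+1B mouse 5, at 0.99, was far above the others, and without it the difference from chow was 0.27 and was called, as it was without any of HFD+1B mice 1, 2, and 4. In the authors' log2 ratio table, made without a background offset, the difference from chow was 1.43 and was called too. Tuba1c, a widely expressed alpha-tubulin, had log2 ratios of -0.90 to 0.17 for chow mice, -0.05 to 0.61 for 1B mice, -0.35 to 0.34 for HFD mice, and -0.23 to 0.58 for HFD+1B mice. The groups overlapped, and the largest difference at this probe, 0.71 ± 0.22 from chow to 1B, did not pass (adjusted p = 0.11). At the second probe it was 0.54 ± 0.21 (adjusted p = 0.22), and HFD mouse 3, highest of the HFD mice at the first probe (0.34), was lowest of all mice at the second (-1.53).

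Among the beta-tubulins, Tubb2a showed the largest rise over chow. Its log2 ratios were -1.67, -1.28, -1.43, and -1.56 in chow mice and -0.37, -0.58, -0.97, and -0.65 in 1B mice. They were -0.54, -0.39, 1.40, and -0.22 in HFD mice and -0.45, 0.86, 0.44, 0.20, and 0.88 in HFD+1B mice. All treated mice lay above all chow mice, whereas the treated groups overlapped with each other. HFD+1B was 3.66-fold over chow (1.87 ± 0.32, adjusted p = 0.00056) and HFD 2.92-fold (1.55 ± 0.34, adjusted p = 0.0078), while the 1.80-fold of 1B did not pass (0.84 ± 0.34, adjusted p = 0.23). HFD+1B and HFD differed by 0.32, with a 95% interval of -0.35 to 1.00. HFD+1B exceeded 1B by 1.03 ± 0.32 (adjusted p = 0.0498), a call that was lost in 14 of the 17 fits that left out 1 mouse.

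The dimmer Tubb2a probes gave larger differences in the same order. At the second and the third probe HFD+1B was 7.75-fold and 8.31-fold over chow (adjusted p = 4.0e-05 and 1.2e-05), HFD 6.15-fold and 6.21-fold (adjusted p = 0.00073 and 0.00036), and 1B 3.07-fold and 3.61-fold (adjusted p = 0.029 and 0.0069). The interaction there was -1.28 ± 0.55 and -1.43 ± 0.51 and did not pass (adjusted p = 0.20 and 0.12). HFD mouse 3 was the highest of all 17 mice at the first and second Tubb2a probes (1.40 and 1.57) and at the third (1.13). Without it HFD exceeded chow by 1.101 at the brightest probe and HFD+1B exceeded HFD by 0.77, and both were called. The 1B difference from chow, 0.84, was called without that mouse too. HFD mouse 3 is in neither of these groups, and the difference itself did not change. Only the spread estimate that all groups share, and the adjustment, had changed, so this call adds no support.

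**Figure D2:**
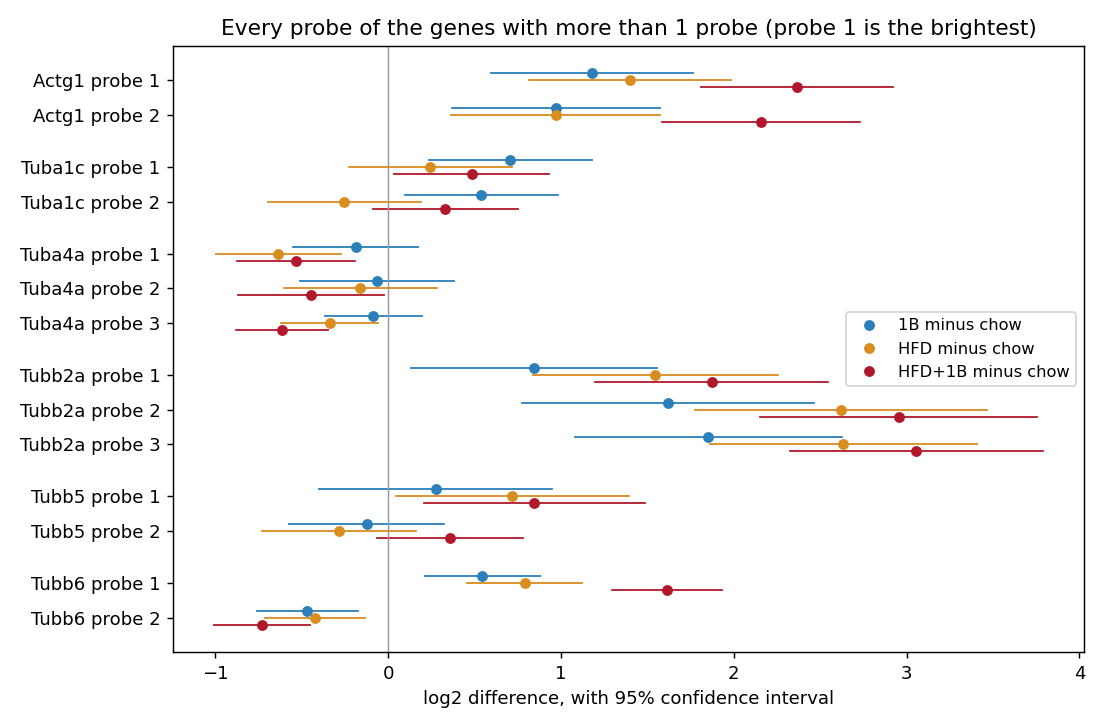
Log2 difference from chow with its 95% confidence interval (x axis) at every probe of the 6 member genes with more than 1 probe (y axis), colored by comparison. The 3 Tubb2a probes order the groups alike but differ in size, Tubb5 differs in sign between its probes for HFD and 1B, and the second Tubb6 probe lies opposite to the first.

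Tubb5, the main beta-tubulin of many cell types, followed Tubb2a closely at its brightest probe. Its log2 ratios were -0.87, -0.55, -0.50, and -0.62 in chow mice and -0.17, -0.36, -0.56, and -0.36 in 1B mice. They were -0.55, -0.40, 1.52, and -0.25 in HFD mice and -0.42, 0.45, 0.18, 0.33, and 0.51 in HFD+1B mice. All HFD+1B mice lay above all chow mice, and no difference was called (HFD+1B minus chow, 0.85 ± 0.30, adjusted p = 0.071). Without HFD mouse 3, whose value of 1.52 was the highest of all mice, HFD+1B exceeded HFD by 0.61 and chow by 0.85, and both were called. The difference from chow does not involve that mouse and was the same with it. Only the spread estimate shared by all groups, and the adjustment, had changed. At the second Tubb5 probe that mouse lay at -0.05, HFD was -0.28 ± 0.21 from chow (adjusted p = 0.43), and HFD+1B exceeded HFD by 0.64 ± 0.20 (adjusted p = 0.035).

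The 60 bases of the brightest Tubb2a and Tubb5 probes are shown because these probes moved together and their sequences overlap. Capitals mark the stretch of 25 bases that aligned without gaps.
Tubb2a: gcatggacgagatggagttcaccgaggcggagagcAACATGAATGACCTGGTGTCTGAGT
Tubb5: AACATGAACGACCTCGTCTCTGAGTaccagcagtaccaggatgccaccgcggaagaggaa
In that stretch 22 of 25 bases were the same, and it was the only overlap of at least 15 bases at 75% identity among 105 pairs of 15 member probes, those of Tubb6 left out. The probes correlated with r = 0.92 over the 17 arrays, and with r = 0.96 after the group means were taken off. The second Tubb5 probe, which did not overlap a Tubb2a probe, had r of 0.31 to 0.43 with the 3 Tubb2a probes, and 0.48 to 0.59 after the group means were taken off. The brightest Tubb5 probe had r of 0.81 to 0.92 with them. These are descriptions over the same arrays, and the part of cross-hybridization between beta-tubulin mRNAs was not tested. The RefSeq table also lists pseudogenes of Actb, Actg1, and Tubb2a, whose transcripts these probes may not tell apart.

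**Figure D3:**
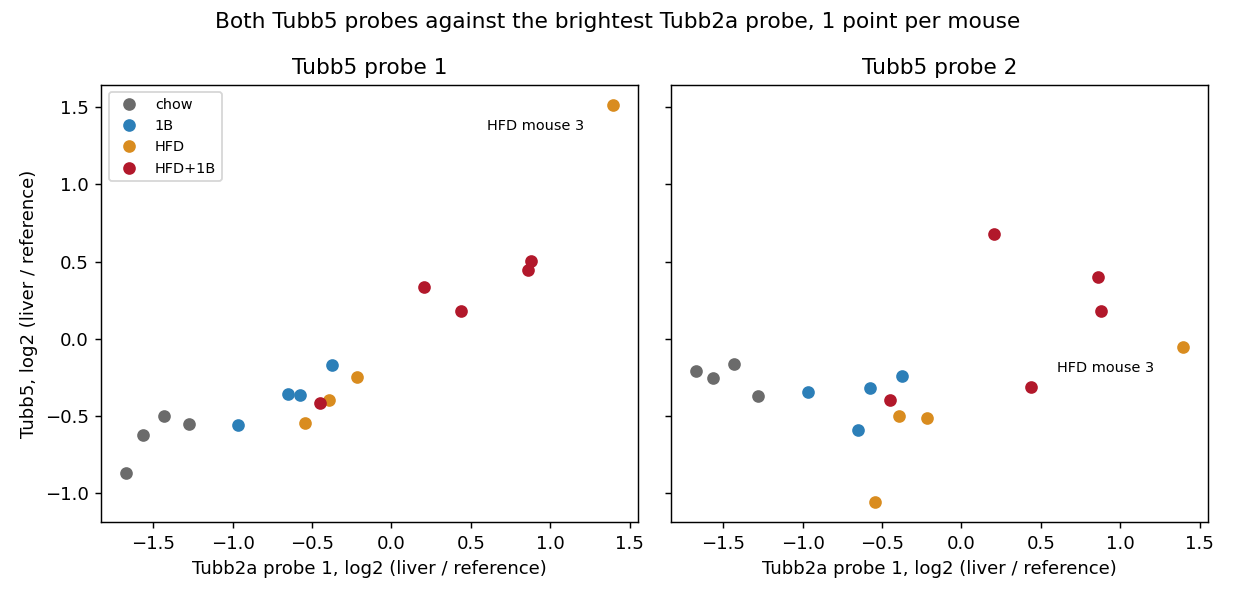
Log2 ratio of the brightest (left) and the second (right) Tubb5 probe (y axis) against the brightest Tubb2a probe (x axis), 1 point per mouse, colored by group. On the left the points follow a line with HFD mouse 3 at its upper end (1.40 and 1.52), and on the right that mouse lies at -0.05.

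Tubb6, a beta-tubulin with a low level in most resting tissues, gave HFD+1B values above those of every other group. Its log2 ratios were -1.15, -0.81, -1.15, and -1.004 in chow mice and -0.08, -0.20, -0.94, and -0.72 in 1B mice. They were -0.01, -0.39, -0.16, and -0.39 in HFD mice and 0.66, 0.36, 0.69, 0.56, and 0.67 in HFD+1B mice. All HFD+1B mice lay above all other mice, and all HFD mice lay above all chow mice. The value of HFD+1B mouse 5 came from a spot with a median Cy5 signal of 168. That signal was below the 524 to 766 of the other HFD+1B mice and within the 126 to 185 of chow mice. Without that mouse HFD+1B was still called higher than chow, HFD, and 1B. HFD+1B was 3.06-fold over chow (1.61 ± 0.15, adjusted p = 2.0e-06), 1.77-fold over HFD (0.82 ± 0.15, adjusted p = 0.0014), and 2.10-fold over 1B (1.07 ± 0.15, adjusted p = 0.00023). HFD was 1.73-fold over chow (0.79 ± 0.16, adjusted p = 0.0049), and 1B, at 0.55 ± 0.16, did not pass (adjusted p = 0.070) but was called with the slide as a block, at 0.60. With the Cy5 signal alone, HFD+1B was called against chow, while its differences from HFD and 1B, 0.77 and 0.65, and that of HFD from chow, 0.59, were not. The ethanol effect was 0.28 ± 0.22 larger on the high-fat diet than on chow, with a 95% interval of -0.18 to 0.74.

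The second probe with the symbol Tubb6 moved the other way. Its log2 ratios were -0.18 to 0.32 for chow mice, -0.62 to 0.03 for 1B mice, -0.47 to -0.07 for HFD mice, and -0.75 to -0.37 for HFD+1B mice, so that HFD+1B lay below chow without overlap (-0.73 ± 0.13, adjusted p = 0.00089). Its r with the first probe was -0.80 over the 17 arrays. Its description in the deposited table is that of an unclassified cDNA clone and not of the Tubb6 mRNA, so the direction of Tubb6 rests on the first probe. Tubb2b, a beta-tubulin known mainly from neurons, was near background, with Cy5 signals of 40 to 99 intensity units. Its log2 ratios lay between -0.15 and 0.72 in all mice, and its largest difference, 0.30 ± 0.13 from chow to HFD, did not pass (adjusted p = 0.16).

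**Figure D4:**
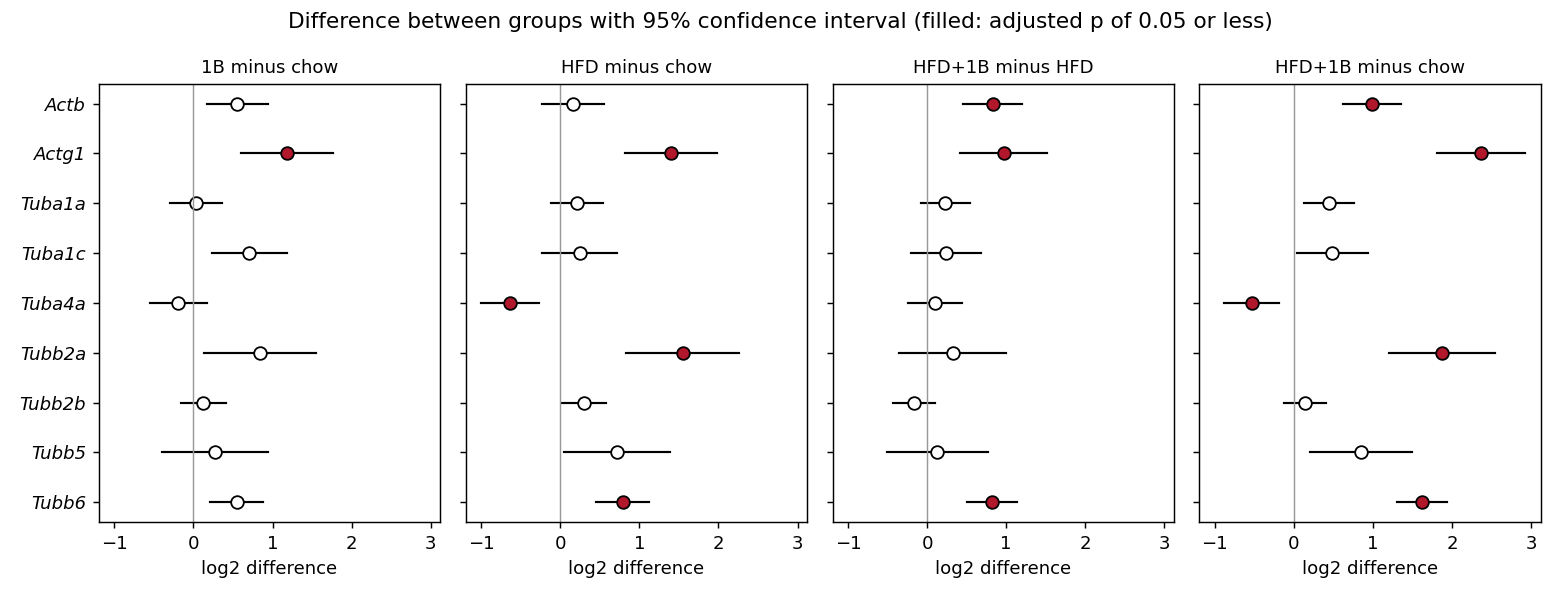
Log2 difference between groups (x axis) with its 95% confidence interval for the 9 member genes at their brightest probe (y axis), in 4 comparisons. Filled points passed an adjusted p of 0.05 or less, and the rises of Actb, Actg1, and Tubb6 passed from HFD to HFD+1B, with differences of 0.82 to 0.97.

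The slide was not confounded with the groups, so differences could be read within slides. From HFD to HFD+1B, Actb, Actg1, and Tubb6 were higher on all 4 slides that held both groups, by 0.35 to 1.48, 0.44 to 1.89, and 0.67 to 1.05. Tubb2a was higher on 3 of 4, from -0.96 to 1.27, and Tubb5 on 3 of 4, from -1.34 to 0.90. The slide with the negative values was that of HFD mouse 3. From chow to HFD+1B, Actb, Actg1, Tubb2a, and Tubb6 were higher on all 4 slides that held both groups, and Tuba4a was lower on all 4, by 0.13 to 0.84. Tuba4a was lower from chow to HFD on all 3 slides that held both groups.

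Across the 17 arrays, members differed in how closely they followed each other. After the group means were taken off, the highest r between brightest probes was that of Tubb2a with Tubb5 (0.96), followed by Tubb2a with Tuba1c (0.65), Tubb5 with Tuba1c (0.55), and Tubb6 with Tuba1c (0.54). Actb and Actg1 had r = 0.69 over the arrays and 0.08 after the group means were taken off. The lowest value was that of Actb with Tubb5 (-0.68). HFD mouse 3 was lowest of all mice for Actb (-1.14) and highest for Tubb5 (1.52). That mouse was also highest of the HFD mice for Tubb2a (1.40) and Tuba1c (0.34). These r values depend on it, and r without it was not calculated. As a description over 17 arrays that share the reference RNA, the genes outside the set with the highest r to Actb were Actr1b (0.91) and Maff (0.90), to Actg1 Rcan1 (0.92) and Ctla2a (0.92), and to Tubb6 Gtf2ird1 (0.94) and Slc16a6 (0.93). Those for Tubb2a were Parp3 (0.96) and S100a10 (0.96), for Tubb5 Tmbim4 and Wdr1 (0.87 each), and for Tuba4a LOC102631971 (0.91) and Chsy3 (0.89). Those for Tuba1a were Lgi2 (0.86) and Fam160a2 (0.85), for Tuba1c Klhdc2 (0.86) and Clock (0.85), and for Tubb2b 4933413L06Rik (0.87) and Stk39 (0.84).

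The other genes of the cytoskeleton were read from 12 lists with 129 genes tested. From HFD to HFD+1B, 32 of the 129 were called higher and 8 lower, beside 11% and 8.38% of all genes, with a median log2 difference of 0.02. From chow to HFD+1B 30 were higher and 7 lower (8.91% and 7.42% of all genes), and from 1B to HFD+1B 25 and 3 (6.27% and 5.16%). The counts were 13 and 5 from chow to HFD (4.48% and 6.55%), 3 and 5 from chow to 1B (2.09% and 2.05%), and 5 and 4 for the interaction (2.71% and 1.71%).

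The actin side was read from the lists of actins, of proteins that act on actin, and of SRF and MRTF factors and targets. There 21 of 68 genes (30.9%) were called higher from HFD to HFD+1B and 3 (4.41%) lower, beside 11% and 8.38% of all genes. Of 4 other actins, 2 rose, Acta2, the smooth muscle actin of myofibroblasts and vessel walls (1.41 ± 0.15, adjusted p = 2.8e-05), and Actg2 (0.57 ± 0.10, adjusted p = 0.0012). Of 15 genes of the Arp2/3 complex, capping, and nucleation, 7 rose and 0 fell, led by Arpc1b (0.72), Arpc3 (0.69), and Wasf2 (0.68), which act in the branching of actin filaments. Among the subunits of the Arp2/3 complex itself, only Arpc1b and Arpc3 were called. Its other subunits had differences on both sides of 0 (-0.42 to 0.21). Of 6 nonmuscle myosin II genes, 3 rose, namely Myh9, the heavy chain (0.99 ± 0.11, adjusted p = 3.5e-05), Myl9 (0.54), and Myl12b (0.48). Against chow, Myh9 (1.09) and Myl12b (1.12) were called higher in HFD+1B, while the 0.28 of Myl9 did not pass (adjusted p = 0.13). For Myh9 the interaction passed as well (0.91 ± 0.15, adjusted p = 0.0060).

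Among the genes that bind actin, the directions were mixed. Of 14 genes of actin monomer binding and turnover, 3 rose and 1 fell from HFD to HFD+1B, with Cap1 (1.03), Pfn1 (0.60), and Cfl1 (0.47) the largest, genes that recycle actin monomers. Cap1 and Pfn1 lay lower in HFD than in chow without passing (-0.71 and -0.43, adjusted p = 0.098 and 0.075). Their differences of HFD+1B from chow were 0.32 and 0.18 (adjusted p = 0.48 and 0.47), while that of Cfl1 was 0.40 (adjusted p = 0.0038). Of 22 cross-linkers and membrane linkers, 4 rose and 2 fell, the largest changes being those of Tagln2 (1.27), Vcl (1.05), and Rdx (-1.01). Tagln2 and Vcl had fallen from chow to HFD (-1.16 and -1.19, adjusted p = 0.0048 and 0.0028), and the differences of HFD+1B from chow were 0.11 and -0.14 (adjusted p = 0.83 and 0.75). Of 7 SRF and MRTF factors and targets, 2 rose, Egr1, an immediate early gene (2.02 ± 0.30, adjusted p = 0.00032), and Srf itself (0.37 ± 0.09, adjusted p = 0.0074). Against chow, HFD+1B was higher by 2.60 for Egr1 (adjusted p = 1.4e-05), while the 0.23 of Srf did not pass (adjusted p = 0.089).

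In the lists of tubulins, their folding, and microtubules, 7 of 54 genes (13%) were called higher from HFD to HFD+1B and 5 (9.26%) lower, shares near the 11% and 8.38% of all genes. Of 9 other tubulins 1 rose from HFD to HFD+1B, Tubb3 (0.30 ± 0.10, adjusted p = 0.043). Of 19 genes of tubulin and actin folding 1 rose and 3 fell, including Tcp1 (-0.49) and Cct4 (-0.41) of the chaperonin that folds actin and tubulin, and Pfdn2 (0.41) of prefoldin. The remaining fall was that of another prefoldin subunit (-0.34). The other prefoldin subunits tested were at -0.35 to -0.10 and were not called. Of 14 microtubule-associated proteins 3 rose and 1 fell, led by Clasp1 (0.94), Map7 (0.75), and Clip1 (0.62). Clasp1 had fallen from chow to HFD (-0.88, adjusted p = 0.0082), and its difference of HFD+1B from chow was 0.06 (adjusted p = 0.89). Of 11 microtubule motors 2 rose and 1 fell, Dync1li1 (0.69), Kif5b (0.39), and Kif3a (-0.50). Ttc5, which recognizes nascent tubulin chains when tubulin mRNA is degraded, changed by 0.36 ± 0.12 and did not pass (adjusted p = 0.051). Of 7 intermediate filament genes 4 rose, led by the hepatocyte keratins Krt8 (0.99 ± 0.21, adjusted p = 0.0042) and Krt18 (0.82 ± 0.23, adjusted p = 0.020) and by Lmna (0.61), a lamin of the nuclear envelope.

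**Figure D5:**
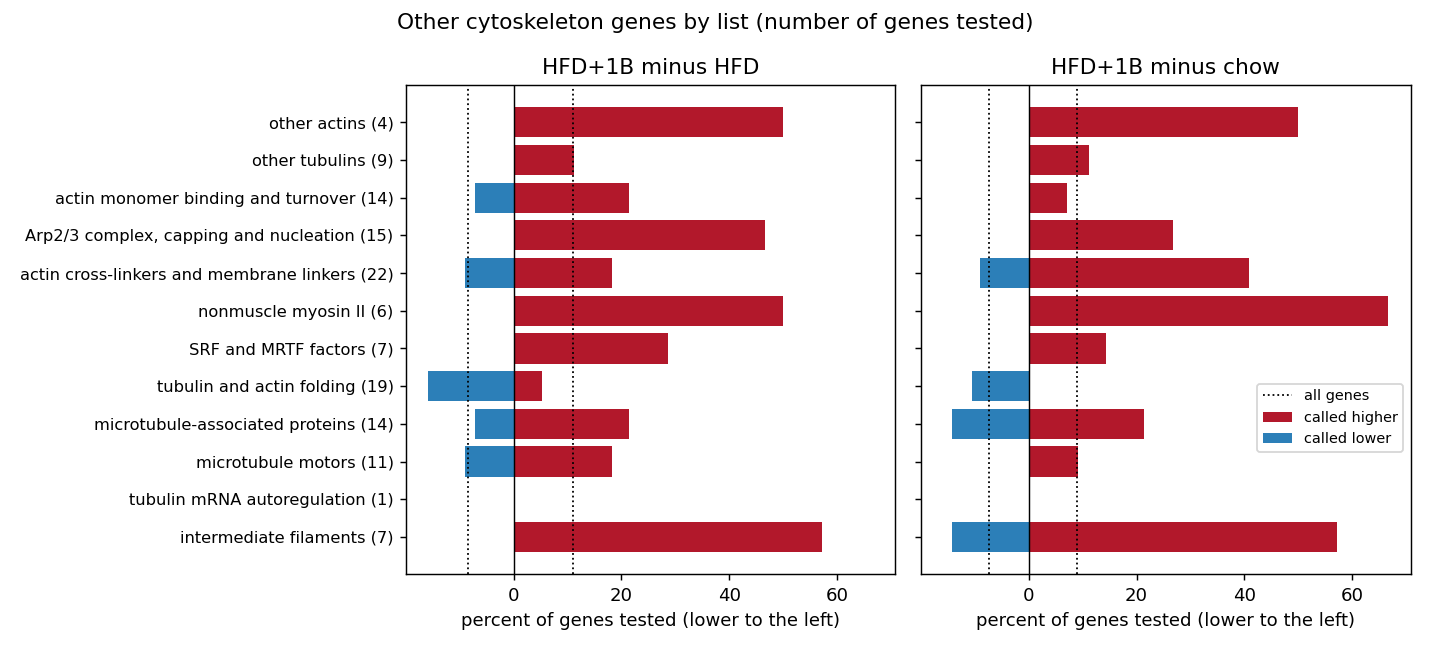
Percent of the genes tested in each cytoskeleton list that were called higher (to the right) or lower (to the left) from HFD to HFD+1B and from chow to HFD+1B (x axis), with the number tested after each list name (y axis). Dotted lines mark the percent of all genes, 11 higher and 8.38 lower in the left panel and 8.91 and 7.42 in the right.

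Markers of liver cell types were counted in the same comparisons. Of all genes, 8.91% were called higher and 7.42% lower from chow to HFD+1B, and 11% and 8.38% from HFD to HFD+1B. The shares were 4.48% and 6.55% from chow to HFD, and 2.09% and 2.05% from chow to 1B. Of 9 stellate cell and myofibroblast markers tested, 8 were called higher from chow to HFD+1B, 4 from chow to HFD, 4 from HFD to HFD+1B, and 1 from chow to 1B, and 2 of them (Acta2 and Des) also stand in the lists above. Their mean log2 ratio was -0.72 to -0.50 for chow mice, -0.53 to -0.35 for 1B mice, -0.05 to 0.16 for HFD mice, and -0.11 to 0.72 for HFD+1B mice. Of 9 macrophage and Kupffer cell markers, 3 were higher from chow to HFD and 3 from chow to HFD+1B, and 0 from HFD to HFD+1B, with a mean of -0.60 to 0.03 for chow mice, 0.00 to 0.18 for HFD mice, and 0.01 to 0.52 for HFD+1B mice. Of 9 neutrophil markers 2 were higher and 1 lower in both comparisons of HFD+1B with chow and with HFD, and the mean ranges overlapped (-0.02 to 0.30 in chow and 0.07 to 0.53 in HFD+1B).

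Of 6 cholangiocyte markers, 3 were higher from HFD to HFD+1B (11% of all genes), with a mean of -0.45 to -0.15 for HFD mice and -0.02 to 0.64 for HFD+1B mice. Of 9 hepatocyte markers 3 were lower from chow to HFD, beside 6.55% of all genes. The mean of these 9 markers was -0.82 to -0.11 in HFD mice, -0.02 to 0.24 in chow, and -0.00 to 0.31 in HFD+1B mice. Of 8 endothelial markers 2 were higher and 3 lower from HFD to HFD+1B, beside 11% and 8.38% of all genes. In that comparison the counts were 2 and 0 of 8 T and B cell markers, and 0 and 0 of 6 proliferation markers. Of the markers of these lists, Lox was well above background on 0 of 17 arrays and Timd4 on 2, and Pck1 and Ly6g had no probe under these symbols. The part of any of these cell types in the actin and tubulin results was not tested.

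Ribosomal RNA moved with the HFD group, as given above. With its level on each array as a covariate, Actb, Actg1, Tubb2a, and Tubb6 were still called higher and Tuba4a lower from chow to HFD+1B. No member was called from chow to HFD or from HFD to HFD+1B in that fit, in which the covariate nearly separates HFD from the other groups. The differences of Actb, Actg1, and Tubb6 from HFD to HFD+1B were 0.21, 0.77, and 1.32 there, and that of Tubb2a from chow to HFD turned to -0.45.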

How the data were processed

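Liver RNA of 17 mice was hybridized to 2-color Agilent mouse arrays, the liver labeled with Cy5 and a commercial assorted mouse RNA with Cy3, without dye swap. The deposited intensity values are scanner median signals and flags made by the authors with Agilent Feature Extraction 11.5.1.1. The deposited table of log2 ratios was used for gene symbols and as an alternative; its values equalled log2 of processed Cy5 over Cy3 signal to within 2.7e-06 over 40901 probes. The Cy3 RNA carries no group, so ratios are relative levels. Dim probes have ratios pulled toward 0 by the offset below.

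Median signals were corrected with normexp (offset 50) and outlier spots were left out. Ratios were normalized by loess within each array and spots of a probe were averaged (R 4.3.3, limma 3.58.1, and the data.table package 1.17.8). Of 43379 non-control spots per array, probes well above background in Cy5 on at least 4 of 17 arrays and with a value in each group were tested (34639; 8 were left out for lack of a value, and 3308 single values were missing and not imputed). The median Cy5 signal per array was 63 to 158 intensity units, and the number of arrays limits the precision. One limma fit of 4 group means with 13 residual degrees of freedom gave all comparisons, with Benjamini-Hochberg adjustment over all tested probes. No array test is named in the methods. A gene stands for its brightest tested probe. On simulated data, 199 of 200 probes changed 4-fold were recovered for HFD+1B against HFD, with 12 false calls. The simulated noise was independent between mice and probes, without effects of slide, ribosomal RNA, or single mice. Members called from HFD to HFD+1B differed by 1.77-fold to 1.95-fold, and recovery of changes of that size was not simulated.

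The members and lists were chosen with earlier results of these data known. Named were all members, at most 3 called genes per list by the size of the change from HFD to HFD+1B, and the 2 genes most like each member among 15346 candidates. Promoters came from RefSeq (GRCm38.p6) and probe sequences from the deposited table. Alternatives were the authors' log2 ratios, median centring, Cy5 alone, an offset of 16, flagged spots kept, no filter, the mean of a gene's probes, slide or replicate number as a block, ribosomal RNA as a covariate, a 2-fold rule, the methods' Tukey test, and leaving out each mouse.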

Additional observations from a re-analysis of the deposited data

Results flagged for a closer look

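In each group of 4 or 5 mice, the gap of the highest or lowest mouse to its nearest neighbor was divided by the range of the group and set against Dixon's 95% value. Of 68 groups of member probes 8 passed, where chance gives 3.4, and HFD mouse 3 accounted for 5 of the 8.

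HFD mouse 3 was highest in HFD at all 3 Tubb2a probes, with gaps of 0.833 of the range at the brightest probe, 0.859 at the second, and 0.894 at the third. It was highest at the brightest Tubb5 probe (0.855) and lowest at the second Tuba1c probe (0.842). This mouse also had the lowest ribosomal RNA ratio of all mice (-3.81) and the lowest mean of the hepatocyte markers (-0.82), and the part of these in its tubulin values was not tested. HFD+1B mouse 5 was highest for Tuba1a (0.724), 1B mouse 3 was lowest at the second Tuba4a probe (0.845), and chow mouse 1 was lowest at the second Tubb6 probe (0.852).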

How the results depend on the processing

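Counts are member genes called of 9. From chow to 1B, 1 gene was called, against 0 with the authors' log2 ratios, median centring, Cy5 alone, the ribosomal RNA covariate, or the methods' Tukey test after Benjamini-Hochberg, 2 with the slide as a block or the Tukey test unadjusted over probes, and 3 with the mean of a gene's probes. From chow to HFD, 4 were called, against 1 with Cy5 alone, 2 with the mean of probes or the 2-fold rule, and 0 with the covariate or the adjusted Tukey test. From chow to HFD+1B, 5 were called, against 3 with Cy5 alone or the 2-fold rule. From HFD to HFD+1B, 3 were called, against 1 with Cy5 alone or the adjusted Tukey test and 0 with the covariate or the 2-fold rule. From 1B to HFD+1B, 3 were called, against 0 with Cy5 alone and 1 with the adjusted Tukey test. The interaction gave 0 under each alternative that has one. Leaving out 1 mouse gave 0 to 3, 3 to 4, 4 to 7, 3 to 4, 2 to 5, and 0 to 0 genes in this order. Tubb2a from chow to HFD turned to -0.45 with the covariate, which nearly separates the HFD group, and the cause of the other changes was not tested. Of 24 pairs of mice with the same replicate number in different groups, 16 correlated above 0.1 (r from -0.13 to 0.48). These were 13 of the 14 that also shared a slide (median r 0.24) and 3 of the 10 that did not (0.07), beside 3 of 7 pairs that shared only a slide (-0.05). A cut at 0.1 cannot decide whether mice of the same number were paired, and the main fit models neither the number nor the slide. With the replicate number as a block, in which HFD+1B mouse 5 has no counterpart, 6 genes were called from chow to HFD+1B and 2 from 1B to HFD+1B, Tuba1a being gained at 0.27 and Tubb2a lost at 0.90, and 52 of 54 differences kept their call. Low signal limits Tuba1a and Tubb2b.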
